A study of Ovis aries with 10 samples.

Results

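The heat shock and cold inducible genes described here are CRYAB, HSPB1, HSPA8, HSP90AA1, HSP90AB1, HSPH1, DNAJB1, HSPD1, CIRBP and RBM3, 10 of the 33775 genes in a table of read counts. They were picked by gene symbol from the chaperone and cold response families, with the luteal and follicular values already known, and CRYAB was set against the others. Luteal and follicular levels of the 10 genes are therefore given as a description, without a test. By symbol 9 of them were found, and CIRBP was found through its gene identifier, which the table lists as LOC101117758. HSPD1 is a chaperonin of the mitochondrion and belongs to the set as a gene of the heat shock response rather than as a cytosolic protein.

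The tissue was the mediobasal hypothalamus of adult Ile-de-France ewes, measured by RNA sequencing in the luteal phase, when the corpus luteum secretes progesterone, and in the follicular phase, when it has regressed. Of 20 ewes 10 were in each phase, and RNA was mixed at random from 2 ewes at a time, so that there were 5 libraries per phase. The labels name no treatment, and each library is an average over its pair of ewes. Library totals ran from 20644992 to 43193449 reads, and follicular 1 and follicular 3 were the shallowest and stood together at one end of the main axis of variation described further on. The 10 genes together took 0.475% to 0.671% of a library's reads, and the lowest single count among them was 1279. The markers of this region, POMC, AGRP, KISS1, TAC3, GHRH and NR5A1, summed to 802 to 1477 CPM in luteal and 872 to 1850 CPM in follicular libraries, where CPM is the read count scaled to a fixed library total after TMM adjustment.

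Chaperones keep other proteins folded. HSP70 proteins bind unfolded stretches with the help of J-domain partners and exchange factors, HSP90 proteins finish the folding of clients that include the steroid hormone receptors, and small heat shock proteins hold unfolding proteins without using ATP. The transcription factor HSF1 induces many of these genes when proteins unfold, as in heat. CIRBP and RBM3 encode small RNA-binding proteins whose levels rise when cells are mildly cooled and fall when they are warmed. Progesterone is known to raise body temperature in several mammals.

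CRYAB stood lower in luteal libraries than any of the other 9 genes did, in size of the difference, and its luteal level was 0.579 times the follicular one. CRYAB encodes alpha-B crystallin, a small heat shock protein of lens, muscle and glia. It had 152, 99.6, 87.5, 99.7 and 82.2 CPM in luteal libraries 1 to 5, against 200.2, 166, 207, 213 and 113 CPM in follicular libraries 1 to 5. The phases overlapped through a single library on each side: luteal 1 was the highest luteal library, follicular 5 was the lowest follicular library, and the other 4 luteal libraries lay below every follicular library. The means were 104 ± 27.9 CPM in luteal and 180.0 ± 41.8 CPM in follicular libraries (SD, n = 5 per phase). On the log2 scale luteal over follicular was -0.79 (SE 0.20), and -0.65 with follicular 1 and 3 left out.

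HSPB1, the other small heat shock protein of the set, had 843, 694, 596, 1024 and 615 CPM in luteal libraries, against 849, 685, 1102, 998 and 682 CPM in follicular libraries. Luteal 4 and follicular 3 were its highest libraries and the phases overlapped widely. Its log2 fold change was -0.19 (SE 0.19). HSPB2 encodes another small heat shock protein and is one of the neighbours of CRYAB, with CFAP68 on the other side, in assembly ARS-UI_Ramb_v3.0. It averaged 10.3 ± 3.08 CPM in luteal and 10.7 ± 1.65 CPM in follicular libraries (SD, n = 5 per phase).

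Read counts within a library can be set against each other without any scaling. There were 10.8, 8.94, 10.7, 8.58 and 13.2 reads of CRYAB for each read of HSPB2 in luteal libraries 1 to 5, against 15.6, 15.9, 18.4, 20.4 and 13.6 in follicular libraries 1 to 5. Every luteal ratio lay below every follicular ratio, by a small margin between luteal 5 and follicular 5. The same was true of the ratio of CRYAB to 9.15% of the 18198 other genes with a read in every library, and the reverse held for 0 genes. CRYAB was set against the other genes with its low luteal values known, so its ratios lean this way by choice. Nothing is therefore read from these shares. HSPB2 was picked out after its values were seen.

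The ratios of CRYAB to HSPB1, HSPA8 and HSP90AA1 overlapped between phases. CRYAB had 0.0974 to 0.181 reads for each read of HSPB1 in luteal libraries and 0.165 to 0.243 in follicular libraries. For each read of HSPA8 it had 0.0806 to 0.181 in luteal and 0.114 to 0.251 in follicular libraries. For each read of HSP90AA1 it had 0.0435 to 0.123 in luteal and 0.0509 to 0.181 in follicular libraries. Luteal 1 had the highest luteal ratio in each.

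**Figure D1:**
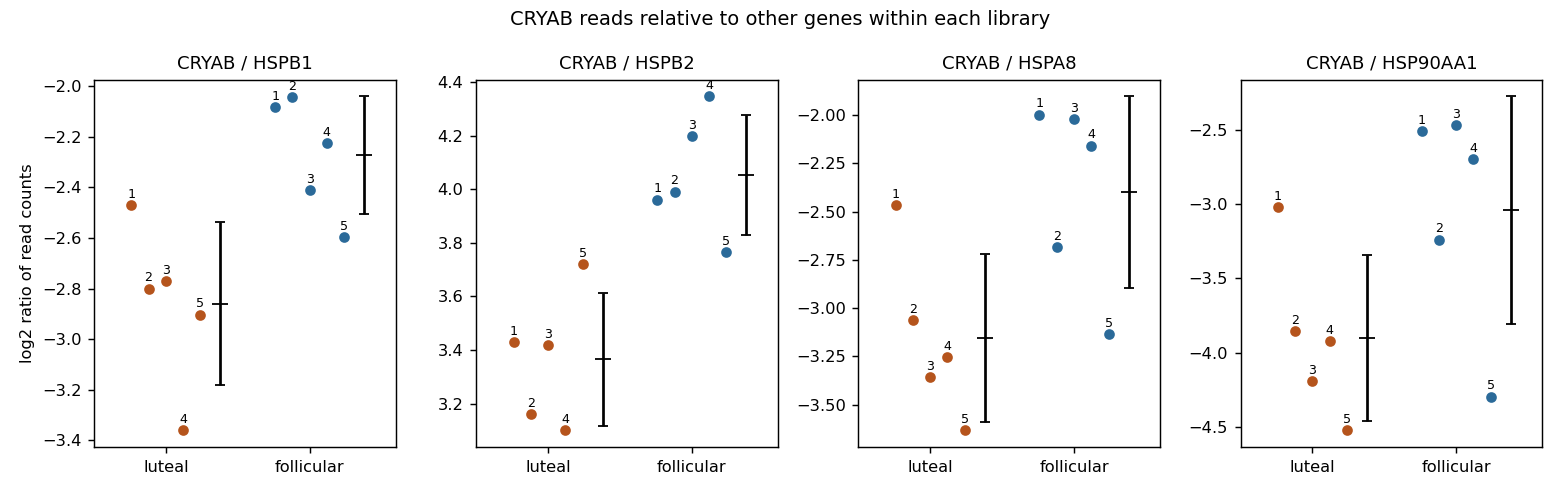
Log2 ratio of the CRYAB read count to that of HSPB1, HSPB2, HSPA8 and HSP90AA1 in each library (points, numbered by library; bar, mean ± SD of 5 libraries; the vertical axes do not start at 0 and differ between panels). The CRYAB to HSPB2 ratio is the one shown in which all luteal libraries lie below all follicular libraries.

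CRYAB is expressed by oligodendrocytes, among other cells, and in a tissue block fewer cells of a type and less RNA per cell cannot be told apart. The 9 oligodendrocyte markers used, MBP and MOG among them, summed to 426 to 1149 CPM in luteal libraries, with a median of 651 CPM, and to 684 to 1215 CPM in follicular libraries, with a median of 908 CPM. Of these markers 6 averaged lower in luteal libraries and 3 higher, 0 passed the test over all genes, and none was at 0 in all libraries. With phase means removed, CRYAB followed the mean of the oligodendrocyte markers with r = 0.47 over the 10 libraries. That mean joins markers that went opposite ways. From follicular 3 to follicular 5 CRYAB went from 207 to 113 CPM, MAG from 50.8 to 29.3 CPM and CNP from 168 to 95.6 CPM. Between the same libraries CLDN11 went from 10.6 to 33.6 CPM and UGT8 from 1.11 to 4.51 CPM. The part of these cells in the CRYAB difference was not tested.

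Other tissues that a dissected block can hold were also measured. The 3 matched striated muscle markers, ACTA1, TNNT3 and DES, summed to 54.4 to 69.8 CPM in luteal and 43.1 to 78.2 CPM in follicular libraries, all 3 averaged lower in luteal libraries, and CRYAB had r = 0.72 with their mean. The 5 choroid plexus markers, TTR among them, summed to 30.2 to 105.7 CPM in luteal and 16.4 to 52.3 CPM in follicular libraries. All 5 averaged higher in luteal libraries, and CRYAB had r = -0.67 with their mean. TTR made up most of the sum, with 94.2 CPM in luteal 4, whereas the mean weighs each marker equally on the log2 scale. KCNJ13, with equal weight, had 1 to 40 reads in a library. Markers of this list also went opposite ways: from follicular 3 to follicular 5 TTR went from 49.5 to 20.6 CPM and AQP1 from 0.636 to 6.90 CPM. TTR itself had 41.0, 49.5 and 16.9 CPM in follicular 1, 3 and 4, the libraries in which CRYAB was highest. The 6 hypothalamic markers had r = 0.71 with CRYAB, 4 averaging lower and 2 higher in luteal libraries. The 4 mural cell markers summed to 281 to 314 CPM in luteal and 235 to 296 CPM in follicular libraries, 3 averaged higher and 1 lower in luteal libraries, and their mean had r = -0.63 with CRYAB. Among them NOTCH3, a receptor of vascular smooth muscle and pericytes, had 105, 119, 105, 111 and 98.2 CPM in luteal libraries, against 84.5, 74.4, 82.0, 75.5 and 83.1 CPM in follicular libraries. All its luteal libraries lay above all follicular ones (log2 fold change 0.43, SE 0.08, edgeR adjusted p = 0.426), as in 0.607% of all genes tested. The same held for SLC4A5 of the choroid plexus list (log2 fold change 1.09, SE 0.29, edgeR adjusted p = 0.426), which had 12 to 128 reads in a library. NOTCH3 and SLC4A5 were picked out after their values were seen. DESeq2 called 1 of the 4 mural markers, and 0.227% of the genes to which it gave an adjusted p. Of these 4 lists 0 markers passed edgeR's test, and their part in the CRYAB difference was not tested.

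Among the 10 genes HSPA8, HSPH1 and DNAJB1 belong to the HSP70 machinery. HSPA8, the constitutive cytosolic HSP70, had 841, 831, 895, 952 and 1020.1 CPM in luteal libraries, against 799, 1067, 842, 952 and 991 CPM in follicular libraries. All 5 luteal values lay within the follicular range, and the log2 fold change was -0.04 (SE 0.11). HSPH1, an HSP110 protein that frees HSP70 of its nucleotide, had 160.0, 178, 212, 199 and 287 CPM in luteal libraries, against 135, 229, 148, 191 and 286 CPM in follicular libraries. Its highest library in each phase was library 5, with nearly the same value in both, and its log2 fold change was 0.07 (SE 0.22).

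DNAJB1, an HSP40 protein that delivers substrates to HSP70 and is strongly induced by heat, varied little among luteal libraries. It had 124, 125, 125, 137 and 131 CPM in luteal libraries, against 107, 151, 107, 139 and 105 CPM in follicular libraries. Luteal values lay in the gap between 3 low and 2 high follicular libraries. The coefficient of variation was 4.40% in luteal and 17.9% in follicular libraries, and the log2 fold change was 0.07 (SE 0.12).

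The pair of cytosolic HSP90 genes differed in how much they varied. HSP90AA1, the form that heat induces more strongly, had 1236, 1444, 1598, 1514 and 1890.0 CPM in luteal libraries, against 1140.0, 1569, 1146, 1382 and 2216 CPM in follicular libraries. HSP90AB1, the more constant form, had 1402, 1329, 1330.2, 1511 and 1399 CPM in luteal libraries, against 1265, 1459, 1432, 1514 and 1470.1 CPM in follicular libraries. All luteal values of both lay within the follicular range.

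HSP90AA1 spanned 1.53-fold among luteal and 1.94-fold among follicular libraries, and HSP90AB1 1.14-fold and 1.20-fold. Luteal over follicular, log2 fold changes were 0.04 (SE 0.19) for HSP90AA1 and -0.03 (SE 0.09) for HSP90AB1. For each read of HSP90AB1 there were 0.882 to 1.35 reads of HSP90AA1 in luteal and 0.800 to 1.51 in follicular libraries.

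HSPD1, the HSP60 chaperonin of the mitochondrial matrix, had 87.8, 102, 114, 103 and 126 CPM in luteal libraries, against 65.5, 109, 70.0, 91.2 and 132 CPM in follicular libraries. Follicular 1 and follicular 3 were lower than all other libraries and follicular 5 was the highest of all. The log2 fold change was 0.18 (SE 0.19).

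The cold inducible pair averaged nearly the same in both phases. CIRBP had 415, 362, 316, 336 and 299 CPM in luteal libraries, against 423, 304, 439, 328 and 227 CPM in follicular libraries. RBM3 had 133, 128, 127, 135 and 108 CPM in luteal libraries, against 148, 139, 145, 134 and 85.1 CPM in follicular libraries. For both, follicular 5 was the lowest of all libraries and luteal 5 the lowest luteal one, and all luteal values lay within the follicular range. The log2 fold changes were 0.01 (SE 0.17) for CIRBP and -0.05 (SE 0.14) for RBM3.

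**Figure D2:**
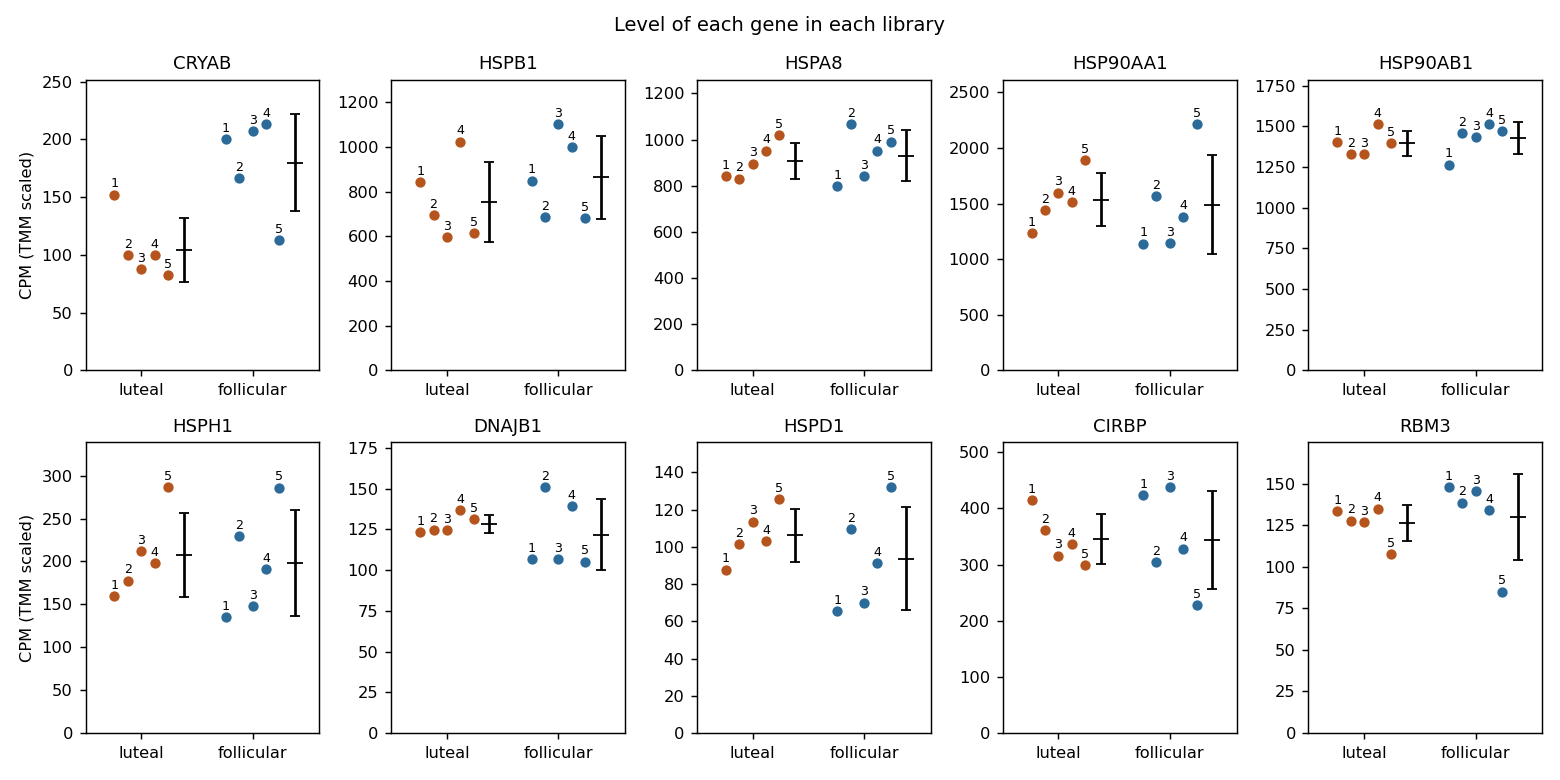
Level of each of the 10 genes in CPM in the 5 luteal and 5 follicular libraries (points, numbered by library; bar, mean ± SD of 5 libraries; axes start at 0). In CRYAB 4 luteal libraries lie below all follicular libraries, and in the other 9 genes the phases overlap more widely.

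After Benjamini-Hochberg adjustment across all 18276 genes tested, edgeR's quasi-likelihood test passed 0 of the 10 genes and 0% of all genes; at an unadjusted p under 0.05 it had 11.4% of all genes. Since the genes were chosen with this contrast known, nothing is read from that count. At that unadjusted level 7.12% of all genes were lower and 4.27% higher in luteal libraries. No unadjusted count is given for the 10 genes, since CRYAB was set against the others with its values known. Luteal means were higher for 5 of the 10 genes and lower for 5, against 51.5% and 48.5% of all genes; with follicular 1 and 3 left out 2 were higher and 8 lower, and without follicular 3 alone 3 and 7. DESeq2 called 0 of the 10 genes and 0.227% of the genes to which it gave an adjusted p, and limma-voom 0 and 0%. In 0 of the 10 genes did the phases not overlap at all, where 0.514% of genes had all luteal libraries lower and 0.607% all higher. The median log2 fold change was -0.01 over the 10 genes and 0.01 over all genes tested.

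Of the 10 genes 8 divided into a pair of groups that varied in opposite directions across libraries. HSP90AA1, HSPH1 and HSPD1 were highest in follicular 5 and luteal 5, the libraries in which CIRBP and RBM3 were lowest, and lowest in follicular 1 and follicular 3, in which CIRBP was highest. There were 2.98, 3.99, 5.06, 4.51 and 6.32 reads of HSP90AA1 for each read of CIRBP in luteal libraries 1 to 5, against 2.69, 5.16, 2.61, 4.21 and 9.75 in follicular libraries 1 to 5. The luteal ratios lay inside the follicular range, so the spread of this ratio was within phases and not between them.

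**Figure D3:**
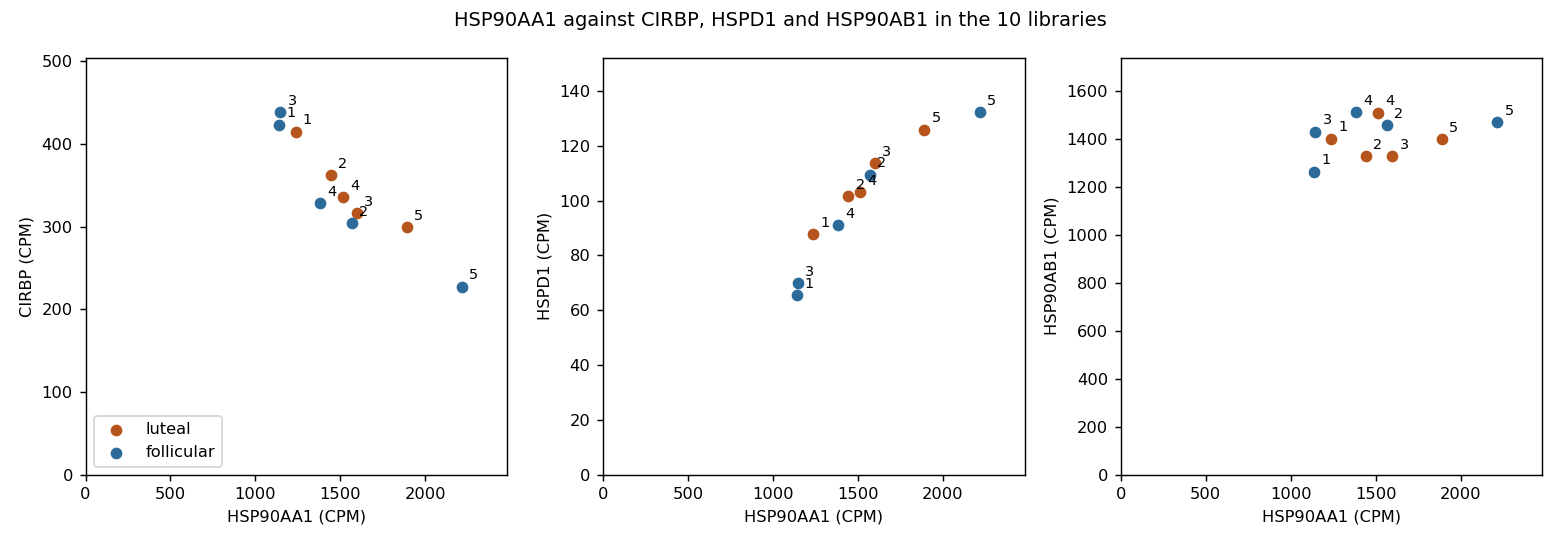
CIRBP, HSPD1 and HSP90AB1 (vertical axes, CPM) against HSP90AA1 (horizontal axes, CPM) in the 10 libraries, numbered within phase; all axes start at 0. CIRBP decreases and HSPD1 increases along HSP90AA1 in luteal and follicular libraries alike, and HSP90AB1 stays between 1265 and 1514 CPM.

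With the phase means taken out of the log2 CPM values, HSP90AA1 and CIRBP had a Pearson's r of -0.98 and a Spearman's rho of -0.99 over the 10 libraries. These correlations are descriptions of 10 libraries that share a scaling and a common axis of variation, and no p is attached to them. HSP90AA1 had r = 0.97 with HSPH1 and with HSPD1, and HSPH1 had r = 0.97 with HSPD1. HSPA8 went with the same genes, at r = 0.89 with HSPH1, 0.84 with HSPD1 and 0.77 with HSP90AA1. Against the other group the r of HSPA8 was -0.78 with CIRBP but weaker with RBM3, at -0.48, and with HSPB1, at -0.40. CIRBP and RBM3 had r = 0.85, and without follicular 5, the lowest library for both, r = 0.66.

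CRYAB sided with the cold inducible pair rather than with HSP90AA1, HSPH1 and HSPD1. Its r was 0.86 with CIRBP, 0.79 with RBM3 and 0.67 with HSPB1, against -0.90 with HSP90AA1, -0.83 with HSPH1 and -0.82 with HSPD1. With the other chaperones the r of CRYAB was -0.57 for HSPA8, -0.08 for HSP90AB1 and 0.09 for DNAJB1. HSPB1 had r = 0.62 with CIRBP and -0.64 with HSP90AA1. HSP90AB1 and DNAJB1 stood outside both groups: with HSP90AA1 their r was 0.36 and 0.10, and their highest r with any of the 10 genes was 0.64 in each case, with HSPA8. DNAJB1, although heat inducible like HSPH1, had r = 0.28 with it.

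**Figure D4:**
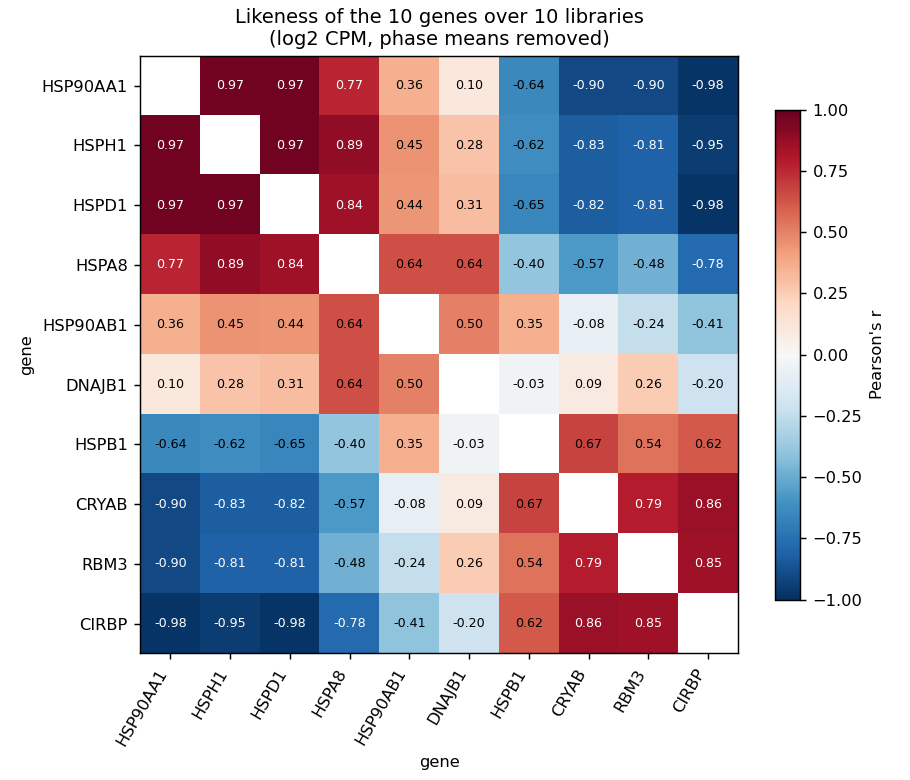
Pearson's r between the 10 genes over 10 libraries, from log2 CPM after each phase's mean was subtracted (red, positive; blue, negative). HSP90AA1, HSPH1, HSPD1 and HSPA8 form one block, CIRBP, RBM3, CRYAB and HSPB1 another, and the blocks are inversely related, least so for HSPA8 with HSPB1 (r = -0.40).

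This opposition ran along the main axis of variation of the libraries. The first principal component of log2 CPM over all tested genes held 51.0% of the variance, with follicular 3 (-61.6) and follicular 1 (-53.2) at one end and luteal 5 (58.2), follicular 5 (48.1) and luteal 3 (47.7) at the other. With phase means removed, HSP90AA1 had r = 0.95 with it, HSPD1 0.93, HSPH1 0.91 and HSPA8 0.66, and CIRBP had -0.93, CRYAB -0.90, RBM3 -0.86 and HSPB1 -0.84. HSP90AB1 had 0.11 and DNAJB1 0.03. Follicular 1 and follicular 3, at one end, were also the shallowest libraries, and the part of depth or RNA quality in the pattern was not tested.

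Many genes shared the pattern. Of the other 18275 genes tested 8.18% had r of at least 0.9 with HSP90AA1 and 6.92% had r of -0.9 or below. CIRBP lay close to the negative end, since 0.126% of genes had an r with HSP90AA1 as low or lower, and RBM3 was at the 6.90 percentile. The likeness of CRYAB to its group was shared by many genes: in order of r with CRYAB, CIRBP stood at the 92.3 percentile of all genes, RBM3 at 85.3 and HSPB1 at 77.2. For DNAJB1 0.0274% of genes reached r of 0.9, for HSP90AB1 0.0766%, and for HSPA8 0.153%, so few genes matched these at that level. HSP90AB1 and HSPA8 also varied little. Their coefficients of variation were 5.33% and 8.73% in luteal and 6.72% and 11.8% in follicular libraries. HSPA8 partly followed the main axis, at r = 0.66. Whether few matches reflect little variation or a separate pattern was not tested.

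The genes whose pattern was most like each of the 10, by this r over 10 libraries, held no other of the 10. For CRYAB they were GDAP1L1, PDCD5 and ID1, an inhibitor of helix-loop-helix transcription factors, with r from 0.981 to 0.983. For HSPB1 they were TRIM28, a transcriptional corepressor, LOC101102809 and UBA1, the enzyme that activates ubiquitin, with r from 0.981 to 0.987. For HSPA8 they were DNAJC24, TBP, the TATA-binding protein, and EID3, with r from 0.960 to 0.972.

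For HSP90AA1 the nearest genes were FAM222B, FTSJ1, a tRNA methyltransferase, and PPM1A, a protein phosphatase, with r from 0.991 to 0.993. Among the next was PTGES3, the HSP90 co-chaperone p23, with r = 0.991. HSP90AB1 was nearest to EIF4A3, an RNA helicase of the exon junction complex, PSMD6, a proteasome subunit, and LOC114114996, with r from 0.940 to 0.947. HSPH1 was nearest to EDN1, the endothelin 1 precursor, FBXO38 and FRMD7, with r from 0.986 to 0.994. DNAJB1 was nearest to NUDT13, TPM1, a tropomyosin, and HSPA6, a further HSP70 gene that is heat inducible in humans, with r from 0.916 to 0.943.

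HSPD1 was nearest to PIM1, a protein kinase, B3GNT2, a glycosyltransferase, and GLYR1, with r from 0.991 to 0.993. CIRBP was nearest to LOC105607070, ZCCHC17 and LOC114114280, with r from 0.984 to 0.988. RBM3 was nearest to EFCC1, LRRC51 and ALKBH3, a demethylase of alkylated nucleic acids, with r from 0.971 to 0.981.

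Markers of other cell types varied along with the 10 genes to different degrees, again with phase means removed. The summed endothelial markers ran from 107 to 143 CPM in luteal and 109 to 155 CPM in follicular libraries, and the mean of the 4 markers had r = 0.01 with HSP90AA1. That mean joins markers that went opposite ways. From follicular 3 to follicular 5 CLDN5 went from 74.9 to 39.9 CPM and CDH5 from 7.64 to 13.9 CPM. The 4 mural cell markers, described above, had r = 0.73 with HSP90AA1 and -0.90 with RBM3. The 4 ependymal markers, at 84.8 to 137 CPM in luteal and 82.1 to 149 CPM in follicular libraries, had r = 0.76 with CIRBP, 0.69 with CRYAB and -0.73 with HSP90AA1. The muscle markers had r = 0.96 with RBM3 and 0.79 with CIRBP, and the hypothalamic markers 0.85 with CIRBP and -0.83 with HSP90AA1. The 7 astrocyte markers, at 3328 to 5199.6 CPM in luteal and 4218 to 5366 CPM in follicular libraries, had r = -0.77 with HSPB1 and -0.28 with CRYAB. The 6 neuron markers, at 699 to 993 CPM in luteal and 846 to 977 CPM in follicular libraries, had r = -0.65 with HSPB1. The 5 microglia markers, at 249.8 to 286 CPM in luteal and 237 to 358 CPM in follicular libraries, had r = -0.55 with HSP90AB1. Within these 3 lists too, markers went opposite ways from follicular 3 to follicular 5. GFAP went from 3486 to 2899 CPM and AQP4 from 39.8 to 142 CPM. RBFOX3 went from 50.2 to 34.8 CPM and SNAP25 from 85.1 to 229 CPM. AIF1 went from 53.3 to 21.9 CPM and P2RY12 from 7.11 to 19.8 CPM. The mural, ependymal and hypothalamic means also join markers that went opposite ways between these libraries. Of the mural markers RGS5 went from 21.4 to 57.6 CPM and ACTA2 from 83.2 to 73.4 CPM. Of the ependymal markers CCDC153 went from 90.7 to 36.9 CPM and FOXJ1 from 25.5 to 32.4 CPM. Of the hypothalamic markers POMC went from 1215 to 515 CPM and NR5A1 from 1.80 to 5.03 CPM. Of the red blood cell markers ALAS2 was at 0 in all libraries and the sum was at most 0.635 CPM in luteal and 0.973 CPM in follicular libraries. No endothelial, mural, ependymal, astrocyte, neuron or microglia marker was at 0 in all libraries, and the part of these tissues in the pattern was not tested.

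The wider chaperone and cold response families were measured through 9 lists of 70 genes, none of them among the 10. Of these 69 were found and 68 passed the filter on low counts: HSPE1, the partner of HSPD1, was not analysed here, and CRYAA, the lens alpha-A crystallin, was too low. Over all genes edgeR called 0 of the 68 higher and 0 lower in luteal libraries, and DESeq2 and limma-voom called 0 each. At an unadjusted p under 0.05 there were 3 higher and 11 lower, against 4.27% and 7.12% of all genes. Of the 68, 27 averaged higher and 41 lower in luteal libraries, against 51.5% and 48.5% of all genes. Their median log2 fold change was -0.09, and that of all genes tested 0.01.

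**Figure D5:**
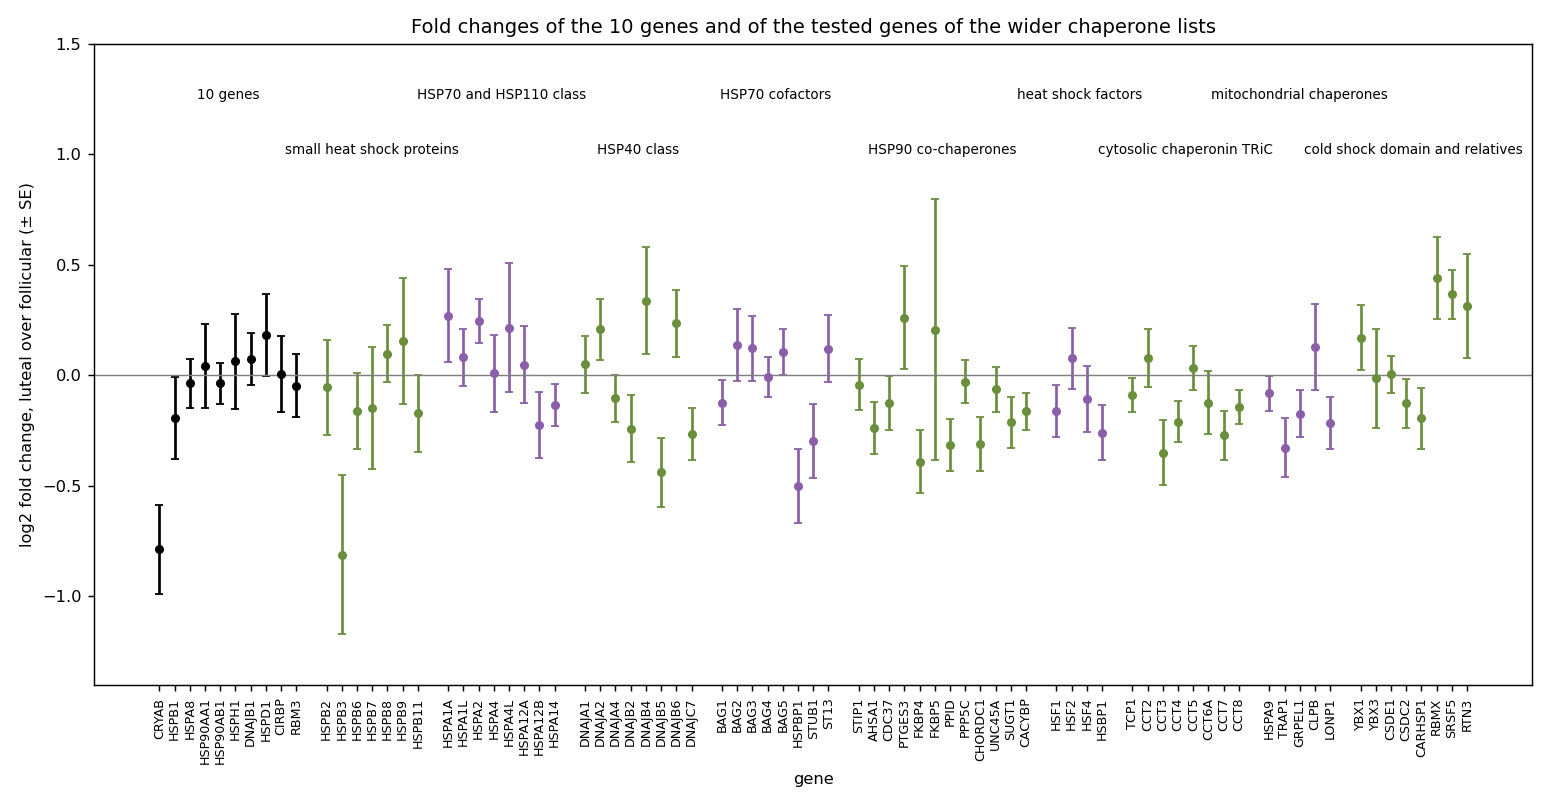
Log2 fold change of luteal over follicular with its SE from edgeR for the 10 genes (black) and for the 68 tested genes of the 9 wider lists (purple and green in turn), 1 point per gene. CRYAB lies at -0.79 and the other 9 genes lie between -0.19 and 0.18.

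Among the other small heat shock proteins 2 of 7 tested averaged higher and 5 lower, and 0 passed. HSPB3, a muscle form, was low, with 7 to 38 reads in a library. It had 0.927, 0.310, 0.225, 0.391 and 0.353 CPM in luteal libraries, against 0.768, 0.843, 0.796, 0.898 and 0.631 CPM in follicular libraries (log2 fold change -0.81, SE 0.36, edgeR adjusted p = 0.426). Like CRYAB, it was highest among luteal libraries in luteal 1. HSPB11, which also serves transport in cilia, averaged 17.8 ± 3.62 CPM in luteal and 20.1 ± 3.57 CPM in follicular libraries (SD, n = 5 per phase; edgeR adjusted p = 0.604).

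Of the other HSP70 and HSP110 genes 6 of 8 averaged higher and 2 lower, and 0 passed. HSPA2, an HSP70 abundant in testis and also found in brain, averaged 33.9 ± 3.09 CPM in luteal and 28.6 ± 2.09 CPM in follicular libraries (SD, 5 libraries each; log2 fold change 0.25, SE 0.10, edgeR adjusted p = 0.426). HSPA12B, an endothelial relative, had a log2 fold change of -0.22 (SE 0.15, edgeR adjusted p = 0.465).

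HSPA1A, the classical heat inducible HSP70, was picked out after its values were seen. It had 172, 164, 193, 228 and 222 CPM in luteal libraries, against 110.3, 187, 103, 224 and 189.5 CPM in follicular libraries. Follicular 1 and follicular 3 lay below all other libraries and the rest overlapped (log2 fold change 0.27, SE 0.21, edgeR adjusted p = 0.515). How reads shared by near-identical HSP70 copies were counted is not given, so separate levels of HSPA1A, HSPA1L and HSPA6 are uncertain.

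The HSP40 list had 4 of 8 higher and 4 lower, and the HSP70 cofactors 4 of 8 higher and 4 lower, with 0 passing in either. DNAJB5, an HSP40 protein, averaged 77.0 ± 18.4 CPM in luteal and 104 ± 14.2 CPM in follicular libraries (SD, 5 libraries each; log2 fold change -0.44, SE 0.16, edgeR adjusted p = 0.426). DNAJC7, a co-chaperone that binds both HSP70 and HSP90, averaged 118 ± 10.1 CPM in luteal and 142 ± 21.4 CPM in follicular libraries (edgeR adjusted p = 0.426). HSPBP1, a nucleotide exchange factor of HSP70, averaged 41.6 ± 7.60 CPM in luteal and 59.0 ± 12.3 CPM in follicular libraries (log2 fold change -0.50, SE 0.17, edgeR adjusted p = 0.426). STUB1, the ubiquitin ligase CHIP, averaged 253 ± 40.4 CPM in luteal and 311 ± 69.5 CPM in follicular libraries (edgeR adjusted p = 0.440).

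Of the HSP90 co-chaperones 10 of 12 averaged lower in luteal libraries and 2 higher, where 48.5% of all genes were lower, and 0 passed. Some of these differences were small against their SE, as in STIP1 (log2 fold change -0.04, SE 0.11) and PPP5C (-0.03, SE 0.10). FKBP4 and PPID are immunophilins found in steroid receptor complexes with HSP90. FKBP4 had 392, 356, 330.1, 496 and 370.0 CPM in luteal libraries, against 500.1, 436, 589, 601 and 421 CPM in follicular libraries (log2 fold change -0.39, SE 0.14, edgeR adjusted p = 0.426). Luteal 4 lay within the follicular range and the other 4 luteal libraries lay below it. PPID averaged 56.6 ± 7.86 CPM in luteal and 70.3 ± 7.79 CPM in follicular libraries (SD, 5 libraries each; log2 fold change -0.31, SE 0.12, edgeR adjusted p = 0.426). The 2 co-chaperones that averaged higher were FKBP5 (log2 fold change 0.21, SE 0.59) and PTGES3 (0.26, SE 0.23). FKBP5 ran from 18.2 to 222 CPM in luteal and from 30.3 to 150 CPM in follicular libraries. FKBP5 and PTGES3 were picked out after their values were seen.

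Of the heat shock factor list 1 of 4 averaged higher and 3 lower. HSF1 averaged 98.1 ± 13.9 CPM in luteal and 109.6 ± 12.3 CPM in follicular libraries, and HSBP1, which binds HSF1, 259 ± 25.2 CPM in luteal and 309.9 ± 51.1 CPM in follicular libraries (SD, n = 5 per phase; edgeR adjusted p = 0.491 and 0.426). Of the 8 subunits of TRiC, the cytosolic chaperonin that folds actin and tubulin, 2 averaged higher and 6 lower. CCT3 averaged 289.9 ± 53.2 CPM in luteal and 369 ± 60.5 CPM in follicular libraries, and CCT7 303 ± 23.3 CPM in luteal and 366 ± 50.8 CPM in follicular libraries (both edgeR adjusted p = 0.426).

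Among mitochondrial chaperones and proteases 1 of 5 averaged higher and 4 lower. TRAP1, the mitochondrial HSP90, averaged 56.8 ± 5.56 CPM in luteal and 71.3 ± 13.2 CPM in follicular libraries, and the protease LONP1 128 ± 13.8 CPM in luteal and 149 ± 20.8 CPM in follicular libraries (SD, n = 5 per phase; edgeR adjusted p = 0.426 and 0.432). Of the cold shock domain proteins and relatives of CIRBP and RBM3, 5 of 8 averaged higher and 3 lower. SRSF5, a splicing factor, had 154, 166, 177, 157 and 179 CPM in luteal libraries, against 114, 134, 111, 124 and 162 CPM in follicular libraries (log2 fold change 0.37, SE 0.11, edgeR adjusted p = 0.426). RBMX, an RNA-binding protein related to RBM3, averaged 187 ± 44.7 CPM in luteal and 138 ± 31.2 CPM in follicular libraries (log2 fold change 0.44, SE 0.18, edgeR adjusted p = 0.426). In none of these 4 lists did any gene pass.

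Genes of the wider families lay on both sides of the HSP90AA1 to CIRBP axis. With phase means removed, 6 of 8 HSP70 and HSP110 genes and 6 of 8 HSP40 genes had a positive r with HSP90AA1, with medians of 0.68 and 0.74, where 50.0% of the other tested genes did. The cold shock list, with 6 of 8 positive and a median of 0.63, lay on the side of HSP90AA1, opposite to CIRBP and RBM3. The HSP70 cofactors had 5 of 8 positive (median 0.46), the HSP90 co-chaperones 6 of 12 (median -0.05) and TRiC 4 of 8 (median 0.05). Medians were negative in the mitochondrial list, with 2 of 5 positive (-0.69), the small heat shock proteins, with 2 of 7 (-0.35), and the heat shock factors, with 1 of 4 (-0.73). No list had all its genes on one side. Individual genes ran from PTGES3 at 0.99 and CCT2, a TRiC subunit, at 0.97 to CARHSP1, a cold shock domain protein, HSF4, a lens heat shock factor, and DNAJB2, a neuronal HSP40, at -0.93 each. SRSF5 and RBMX went with HSP90AA1, at r = 0.96 and 0.87, and against CIRBP, at -0.96 and -0.83. Members of 1 complex were found on both sides: among TRiC subunits CCT7 had r = -0.89 with HSP90AA1 and CCT5 0.90. The genes given here by their r, beyond SRSF5, RBMX and CCT7, were chosen after their values were seen.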

How the data were processed

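Gene-level counts came from 10 libraries of ewe mediobasal hypothalamus, 5 luteal and 5 follicular, each a mix of RNA of 2 ewes per the series' design text. Per the labels' protocols, TriReagent RNA went into Illumina's TruSeq kit for stranded mRNA. Tools named are featureCounts 2.0.0, SAMtools 1.9, TopHat2 2.1.1 with Bowtie2 2.3.5.1, FastQC and bcl2fastq 2.20, per the submitters' processing notes. The genome build, strand setting and treatment of reads that match several genes are not given in the sources used here, so genes with near-identical copies, such as the HSP70 genes, are uncertain. The authors deposited raw whole-number counts of 33775 genes in 1 table. Identifiers of 94.4% matched the gene table of ARS-UI_Ramb_v3.0, from which 492 symbols were taken.

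The 10 genes, the 9 gene lists, the 11 marker lists and the rules for naming genes were chosen with earlier results of these data known. All 10 genes are named, from each list the 2 genes with the smallest p, and for each of the 10 genes the 3 others with the highest r. Counts were analysed in R 4.3.3 with edgeR 4.0.16: filterByExpr by phase (minimum count 10, minimum total 15) left 18276 genes, followed by TMM scaling and the two-sided quasi-likelihood F-test with phase as the only term. Benjamini-Hochberg adjustment covered all genes tested, with a threshold of 0.05. Patterns were compared by Pearson's r of log2 CPM (prior count 2) after subtraction of phase means. The scripts were tested on simulated data. Other settings tried were no filter, upper-quartile or RLE scaling, 1 CPM in 5 libraries, the replicate number as a block, each library left out, follicular 1 and 3 left out, DESeq2 1.42.0, limma-voom (limma 3.58.1) and robust dispersion. No pair of the 10 libraries agreed within sampling noise (chi-square per degree of freedom from 12.8 to 177), so all were counted separately. Error terms come from the spread among mixes. No sequences were used. An item among the oligodendrocyte markers is not reported here, and its values are in no sum.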

Additional observations from a re-analysis of the deposited data

Results flagged for a closer look

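In 56 groups of 5 libraries (28 genes in each phase) the highest or lowest library was compared with the rest of its phase, and 3 stood apart by Dixon's 95% limit, where chance gives about 1 in 20, or 2.8. CRYAB was 152 CPM in luteal 1, with the next luteal library at 99.7 CPM. RBM3 was 85.1 CPM in follicular 5, with the next follicular library at 134 CPM. HSPB3 was 0.927 CPM in luteal 1, with the next luteal library at 0.391 CPM. What sets these libraries apart was not tested.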

How the results depend on the processing

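The count of genes called over all genes was 0 by edgeR, 35 by DESeq2 and from 0 to 1 with each library left out, the 1 arising without luteal 4. Of the genes of the 9 lists 0 were called under every one of the 19 alternatives. With the replicate number as a block 0 genes were called, and CRYAB was at -0.79. Its SE was then 0.14, against 0.20, and that of HSP90AA1 0.12, against 0.19. For HSPBP1 the edgeR adjusted p was 0.143 with the block, against 0.426. Same-numbered libraries of the phases did not deviate together throughout: r was 0.36, 0.05, -0.33, 0.28 and 0.63 for numbers 1 to 5. Of the 10 libraries 4 correlated best with their own number. These values and the smaller SE with the block do not settle whether same-numbered libraries shared a source of variation, which was not tested. The labels do not describe the numbers as pairs, and the main test did not treat them as such. CRYAB kept a log2 fold change between -0.96 (without luteal 1) and -0.65 (follicular 1 and 3 left out). Leaving out follicular 1 and 3 gave -0.16 for HSP90AA1, -0.18 for HSPH1, -0.06 for HSPD1, -0.04 for DNAJB1, 0.27 for CIRBP and 0.09 for RBM3, against 0.04, 0.07, 0.18, 0.07, 0.01 and -0.05 with all libraries. The r of HSP90AA1 and CIRBP stayed between -0.99 and -0.96. Without follicular 5 the r of CIRBP and RBM3 was 0.66, against 0.85. No scaling moved the median of all genes by more than 0.1 on the log2 scale. Of the 68 list genes 41 averaged lower in luteal libraries, and 39 to 50 did over the alternatives, the 50 with follicular 1 and 3 left out.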
